A study of Mus musculus with 9 samples.

Results

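The injection of EnzR EVs, extracellular vesicles from enzalutamide resistant CWR-R1 prostate cancer cells, was common to 2 of the 3 groups of mice, and these groups were compared together with the mice given PBS. All 9 libraries of the series entered the comparison: 6 from EV-injected mice and 3 from PBS mice. The 6 EV-injected mice comprised 3 that received EnzR EVs alone and 3 that received EnzR EVs with HDL NPs, synthetic nanoparticles that mimic high-density lipoprotein. The members were every mouse whose label named EnzR exosomes, so no measured value entered their choice. Every mouse was a male C57BL/6 animal, and the methods give an age of 3 to 6 weeks for the mice of the study. EnzR EVs were given as 10 µg of EV protein in 100 µl through the tail vein on days 1, 3 and 5, and PBS mice received 100 µl of PBS. HDL NPs were given in 100 µl on days 0, 2 and 4, at 1 µM by the labels and at 100 µM by the methods. Bone marrow of femurs and tibias was taken 24 h after the final injection, red cells were lysed, and CD11b+ cells were collected by positive selection. No group received vesicles of another cell type or HDL NPs without vesicles, so an effect of EnzR EVs could not be told apart from an effect of injected vesicles in general, and an HDL NP effect shared with EnzR EVs could not be told apart from the EV effect.

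CD11b, the integrin chain encoded by Itgam, marks the myeloid cells of the marrow: neutrophils and their precursors, monocytes and macrophages. Myeloid cells answer type I interferon through the receptor chains Ifnar1 and Ifnar2, whose signal reaches an interferon-stimulated response element (ISRE) in the promoters of antiviral genes. Type II interferon is known for inducing guanylate-binding proteins and the machinery of antigen presentation by MHC class I. Marrow macrophages, by contrast, are known for clearing dying cells and red cell precursors, and for handling lipid and iron.

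Total counts ranged from 2575776 to 18110561 per library. The ribosomal RNA gene Rn45s took 20.3% of the counts of PBS replicate 1, 42.7% of EnzR EV replicate 1 and 14.2% of EnzR EV replicate 3, against 0.657% to 2.87% of the other 6 libraries, and EnzR EV replicate 1 was also the smallest library. The 3 Rn45s-rich libraries had the 3 lowest summed levels of 32 neutrophil genes, 69424, 42205 and 85623 CPM (counts scaled to a common library size with TMM factors), against 102625 to 171442 CPM in the others. Results are therefore also given without these 3 libraries, which leaves 2 PBS mice, 1 mouse given EnzR EVs and 3 given EnzR EVs + HDL NPs; the lone mouse of its group is then assumed to vary like the other groups. Itgam, the selected marker, stood between 1389 and 2006 CPM in all 9 libraries, with a log2 fold change of 0.07 (SE 0.16) between EV-injected and PBS mice. Ly6c2, a gene of the Ly6C antigen of monocytes, was between 101 and 596 CPM, and Ly6g was not among the counted genes.

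No gene differed between EV-injected and PBS mice at an adjusted p under 0.05 by edgeR's quasi-likelihood test (0 of 12553 genes, 0%), and the smallest adjusted p was 0.514. At an unadjusted p under 0.05, 96 genes were higher (0.765%) and 177 were lower (1.41%) in EV-injected mice. In 88 genes (0.701%) all 6 EV-injected mice lay above all 3 PBS mice, and in 117 genes (0.932%) all 6 lay below. DESeq2, on the same 9 libraries and the same contrast, called 6 genes higher (0.0319% of 18794) and 8 lower (0.0426%) at an adjusted p under 0.05. The 6 higher genes were H2-T24, Ifit1, Rsad2, Ly6i, Gm12250 and Oas3, and the 8 lower genes were Hspa1b, Atf3, Sepp1, Niacr1, Axl, Irf4, Thbs1 and Hspa1a. Limma's voom called 0 genes, and 86 once each library was weighted by its quality (36 higher, 50 lower). The median log2 fold change of all tested genes was -0.01, with 5972 genes above 0 and 6581 below. None of the genes described below passed edgeR's adjustment in the fit to all 9 libraries. The smallest two-sided p of the exact permutation test of 6 against 3 mice is 0.0238, which any gene with non-overlapping groups reaches.

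Interferon-stimulated genes were higher in EV-injected mice as a list. All 77 tested members of a list of type I interferon-stimulated genes had a log2 fold change above 0, with a median of 0.50 (from 0.07 to 1.64), against -0.01 for all genes. By edgeR 0 of the 77 passed the adjusted threshold, 32 had an unadjusted p under 0.05 (against 0.765% of all genes higher at that level), and in 7 the 6 EV-injected mice all lay above the PBS mice (against 0.701%). DESeq2 called 3 of them higher, Ifit1, Rsad2 and Oas3 (against 0.0319% of all genes).

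The mice did not contribute equally. Averaged over the list, log2 CPM stood at 4.68, 5.15 and 5.10 in PBS mice, 5.93 and 5.36 in EnzR EV replicates 2 and 3, and 5.84, 5.64 and 5.67 in the mice given EnzR EVs + HDL NPs. EnzR EV replicate 1 stood at 4.40, below every PBS mouse, so that 5 of the 6 EV-injected mice lay above the PBS range. Of the 77 genes, 75 were above all PBS mice in EnzR EV replicate 2 and 49 in replicate 3, and the mice that also received HDL NPs had 67, 66 and 67. In EnzR EV replicate 1 only 12 were above all PBS mice and 48 were below, in a library in which 44.6% of all tested genes lay below the PBS range. Across all tested genes the share above the PBS range was 23.6% to 35.7% in the 6 mice.

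**Figure D1:**
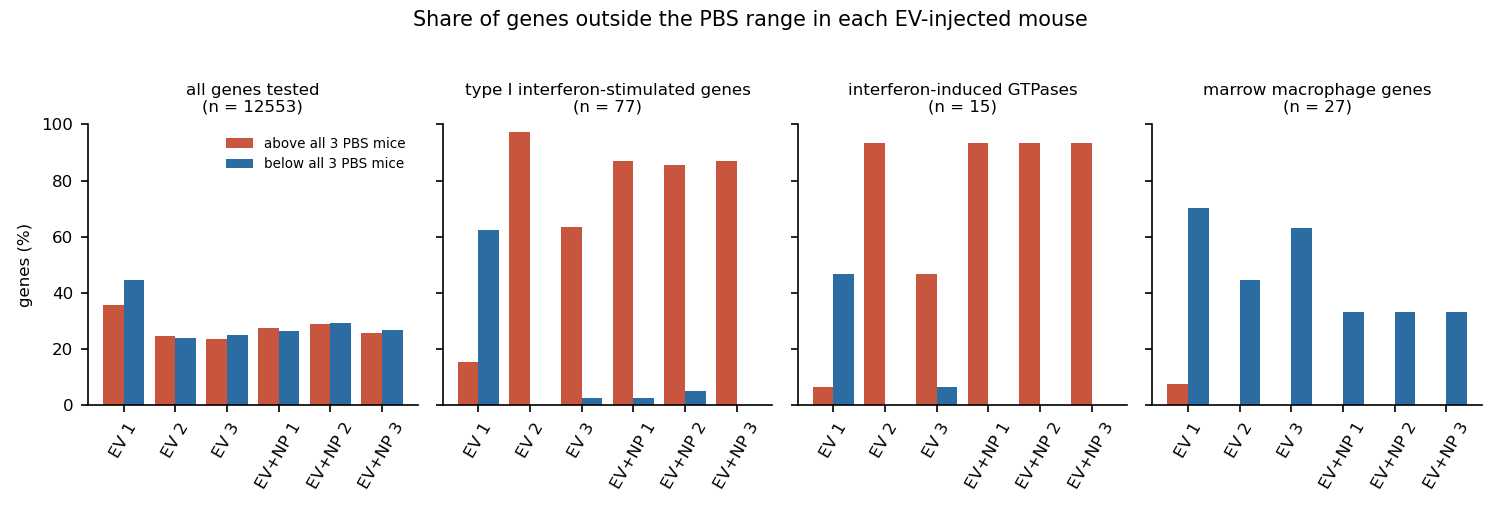
Percentage of tested genes above (red) or below (blue) all 3 PBS mice in each EV-injected mouse, for all genes and for 3 lists; EV stands for EnzR EVs and EV+NP for EnzR EVs + HDL NPs, with the replicate number. In the type I interferon list 97.4% of genes lay above the PBS range in EnzR EV replicate 2 and 15.6% in replicate 1, against 24.7% and 35.7% of all genes. Marrow macrophage genes lay below it in 33.3% to 70.4%, against 23.8% to 44.6% of all genes. In each mouse given EnzR EVs + HDL NPs the macrophage share was 33.3%, against 26.4% to 29.2% of all genes.

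Without the 3 Rn45s-rich libraries, all 77 genes again had a log2 fold change above 0, with a median of 0.61, and 61 were higher at an unadjusted p under 0.05, against 2.23% of all genes in that fit. In that fit edgeR called 13 genes higher (0.101% of 12934) and 1 lower (0.00773%), and 11 of the 13 were members of the list: Ifit1, Ifit3, I830012O16Rik (a gene of the Ifit family), Rsad2, Oas1a, Oas2, Oasl1, Oasl2, Rtp4, Trim30d and Zbp1. The other 2 higher genes were Vcan and Lipg, and the lower gene was Cd209a. In that fit EnzR EV replicate 2, the mouse with the highest list level (5.93), alone stands for EnzR EVs. Its coefficient weighs as much as that of the 3 mice given EnzR EVs + HDL NPs. Left out are EnzR EV replicate 1, below every PBS mouse, EnzR EV replicate 3, above the PBS range, and PBS replicate 1, the lowest PBS mouse (4.68). Lipg was at 37.7 CPM in EnzR EV replicate 2 and at 5.63 to 6.78 CPM in the mice given EnzR EVs + HDL NPs.

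Ifit1, which binds foreign RNA that lacks host cap methylation (GRCm38 chromosome 19, 34640871 to 34650009, plus strand), was at 24.1, 15.8 and 13.2 CPM in PBS mice. It was at 94.9, 62.5 and 61.0 CPM after EnzR EVs and at 44.9, 31.5 and 39.6 CPM after EnzR EVs + HDL NPs. All 6 EV-injected mice were above all PBS mice, and the 3 EnzR EV mice, Rn45s-rich libraries included, were above the 3 given HDL NPs. The log2 fold change was 1.60 (SE 0.25, 3.02-fold; edgeR, adjusted p = 0.514), and DESeq2's adjusted p was 1.81e-06. Rsad2, which encodes viperin, a radical SAM enzyme that blocks viral RNA synthesis, was at 70.9, 68.3 and 59.2 CPM in PBS mice. In EV-injected mice it ranged from 105 to 178 CPM with a median of 137, without overlap. Its log2 fold change was 1.05 (SE 0.19, 2.08-fold), and DESeq2 gave an adjusted p of 0.000326.

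The list held 8 tested genes of the oligoadenylate synthetase family, whose enzymes sense double-stranded RNA and switch on RNase L. Their log2 fold changes ran from 0.26 (Oas1c) to 1.45 (Oas1g), 7 had an unadjusted p under 0.05 (against 0.765% of all genes) and edgeR called 0. Oas3 was at 141, 162 and 137 CPM in PBS mice and from 193 to 320.2 CPM in EV-injected mice, with a log2 fold change of 0.74 (SE 0.17) and no overlap. Oasl2 was at 57.6, 78.9 and 64.5 CPM in PBS mice and at 116 CPM or more in 5 EV-injected mice, but at 66.4 CPM in EnzR EV replicate 1 (log2 fold change 1.10, SE 0.30; exact permutation p = 0.0476). Slfn5, a Schlafen family gene, was at 116 to 123 CPM in PBS mice, at 115 CPM, just below them, in EnzR EV replicate 1 and at 179 to 240.1 CPM in the other 5.

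Isg15, a ubiquitin-like modifier, overlapped between groups at 12.5, 6.38 and 4.52 CPM in PBS mice and 9.30 to 20.9 CPM in EV-injected mice (log2 fold change 1.01, SE 0.36; exact permutation p = 0.0952). Cxcl10, a chemokine for T cells that both interferon types induce, was at 1.58, 2.36 and 3.32 CPM in PBS mice and 3.31 to 9.18 CPM in EV-injected mice (log2 fold change 1.10, SE 0.36). Its lowest EV-injected mouse lay just under the highest PBS mouse.

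The promoters of these genes are shown to place the letters of the ISRE core in them. The motif searched was GAAANNGAAA on both strands, where N is any base, in 300 bases around each gene's start (250 before and 50 after it) in RefSeq sequences of GRCm38.p6. It was held by 27 of the 56 list members with a sequence (48.2%), by 9 of 10 interferon-induced GTPase genes (90%) and by 3.99% of 27025 genes with a promoter sequence. Of the tested genes with all 6 EV-injected mice above the PBS mice, 8 of 52 held it (15.4%), and of those with all 6 below, 3 of 86 (3.49%). Capitals mark the motif on the strand shown, 5′ to 3′, where TTTC is the start of the reverse complement:
Ifit1, chr19:34640745-34640853, plus strand: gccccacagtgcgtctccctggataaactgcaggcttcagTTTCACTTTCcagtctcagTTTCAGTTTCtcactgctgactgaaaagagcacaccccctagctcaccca
Rsad2, chr12:26456523-26456612, minus strand: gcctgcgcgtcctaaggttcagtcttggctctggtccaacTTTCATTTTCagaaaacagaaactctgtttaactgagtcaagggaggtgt
Oas3, chr5:120777685-120777774, minus strand: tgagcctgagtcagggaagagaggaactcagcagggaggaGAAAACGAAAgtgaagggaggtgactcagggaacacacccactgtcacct
Isg15, chr4:156200835-156200936, minus strand: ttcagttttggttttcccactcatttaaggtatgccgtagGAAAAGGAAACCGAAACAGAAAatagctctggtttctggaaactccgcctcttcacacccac
Gbp2, chr3:142620564-142620653, plus strand: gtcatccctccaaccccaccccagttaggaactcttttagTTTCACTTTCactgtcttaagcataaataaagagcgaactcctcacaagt
Gm12250, chr11:58183712-58183846, plus strand: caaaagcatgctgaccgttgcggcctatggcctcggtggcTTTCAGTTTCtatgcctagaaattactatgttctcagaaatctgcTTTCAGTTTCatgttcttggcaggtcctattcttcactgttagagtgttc
Ifit1 held 2 copies, between positions -104 and -76 from the start site, Isg15 held 3 overlapping copies between -78 and -57, and Gm12250 held 2 between -91 and -37. Rsad2, Oas3 and Gbp2 held 1 each. No copy with these letters was found in the windows of Oasl2 or Vcan.

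**Figure D2:**
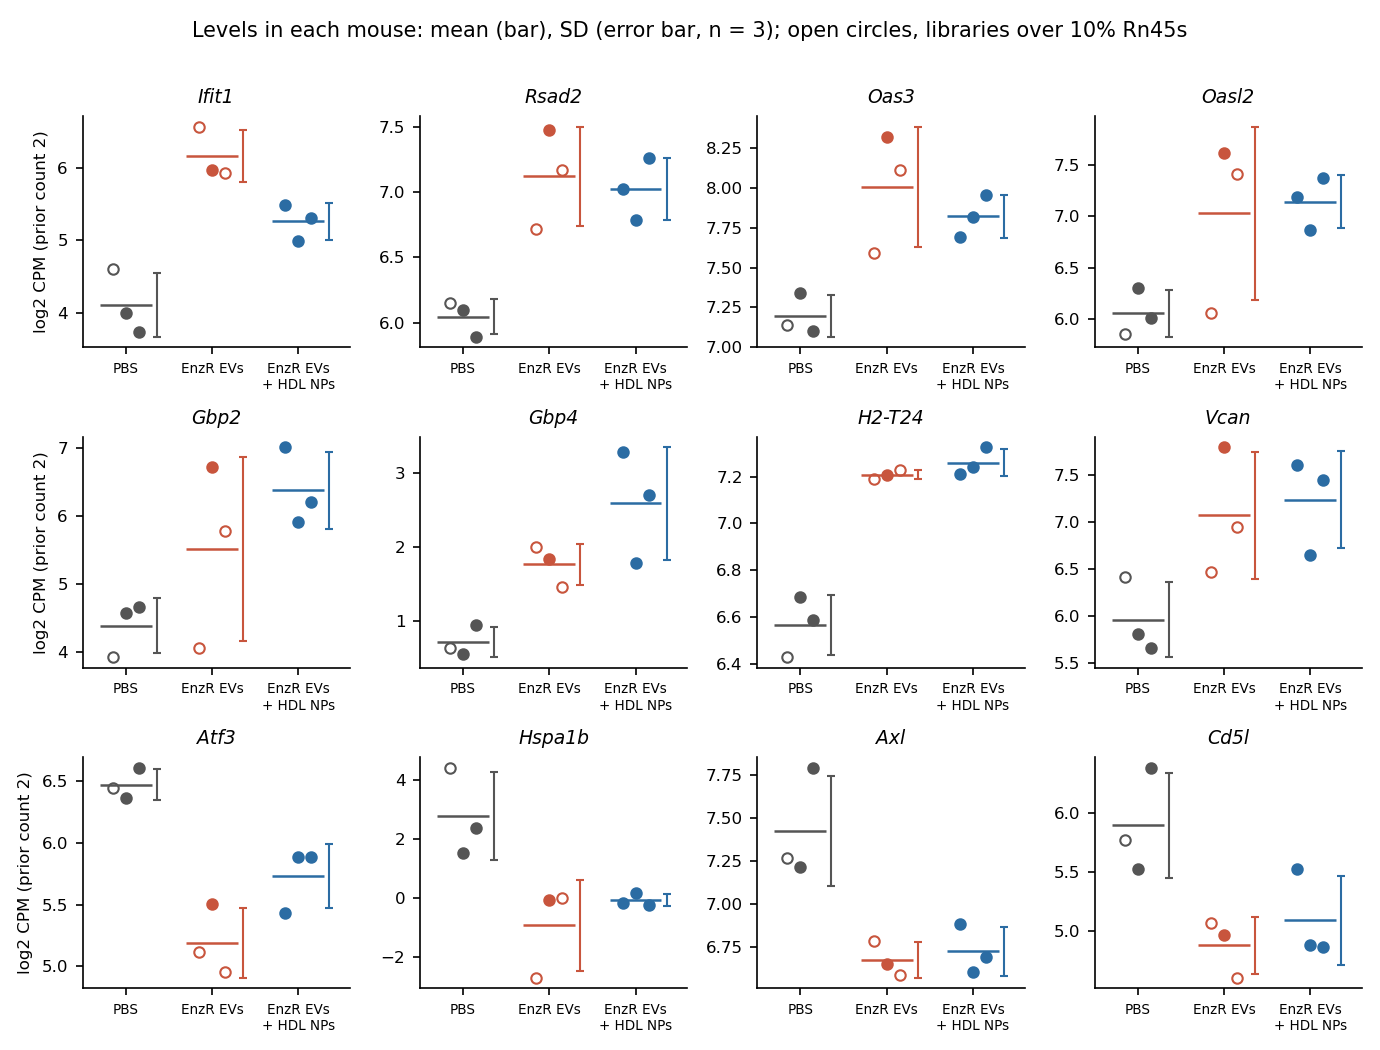
Log2 CPM (prior count of 2) of 12 genes in each mouse, by group; horizontal bars are group means and error bars SDs of 3 mice, and open circles are the 3 libraries with over 10% Rn45s. Ifit1, Rsad2, Oas3, Gbp4, H2-T24 and Vcan of all 6 EV-injected mice lie above the PBS mice, Oasl2 and Gbp2 of EnzR EV replicate 1 lie within the PBS range, and Atf3, Hspa1b, Axl and Cd5l lie below it.

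Interferon-induced GTPases, the guanylate-binding proteins and immunity-related GTPases that coat and disrupt vacuoles holding pathogens, had the highest median of the lists. All 15 tested members had a log2 fold change above 0, with a median of 0.90 and a range from 0.19 to 2.14; edgeR called 0 of the 15, 9 had an unadjusted p under 0.05 (against 0.765% of all genes) and in 1, Gbp4, the groups did not overlap (against 0.701%). Gbp4 was at 1.41, 1.32 and 1.77 CPM in PBS mice, at 3.84, 3.41 and 2.601 CPM after EnzR EVs and at 9.57, 3.28 and 6.36 CPM after EnzR EVs + HDL NPs (log2 fold change 1.57, SE 0.38). Gbp2 was at 14.96, 23.7 and 25.1 CPM in PBS mice and at 54.6 to 129.5 CPM in 5 EV-injected mice, while EnzR EV replicate 1 stood at 16.5 CPM within the PBS range. Its log2 fold change was 1.77 (SE 0.48, 3.41-fold), and the exact permutation p was 0.0714. Gbp5, Gbp7 and Ifi47 had log2 fold changes of 1.31, 0.91 and 0.82 with overlap between groups. Gm12250, which was not on the list, is annotated by RefSeq as a protein-coding gene (the immunity-related GTPase Irgb10), whose start site was used for the promoter shown above, and by GENCODE M21 as a processed pseudogene that starts further downstream. It was at 9.504, 12.3 and 10.7 CPM in PBS mice and 12.6 to 43.5 CPM in EV-injected mice, without overlap (log2 fold change 1.25, SE 0.29; DESeq2 adjusted p = 0.0452).

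Genes of MHC class I presentation had a smaller median than the interferon lists above, and the lists were not tested against each other. Of 22 tested members, 21 had a log2 fold change above 0, with a median of 0.25 (0.35 without the 3 Rn45s-rich libraries). At an unadjusted p under 0.05, 2 were higher, against 0.765% of all genes, and edgeR called 0. In EnzR EV replicate 1, 10 of the 22 lay below all PBS mice (45.5%, against 44.6% of all tested genes) and 5 above (22.7%, against 35.7%). From 10 to 18 lay above them in each other EV-injected mouse (45.5% to 81.8%, against 23.6% to 29.0% of all tested genes). H2-T24, a non-classical MHC class I gene, was at 85.9, 103 and 95.8 CPM in PBS mice, 146, 147 and 149.8 CPM after EnzR EVs, and 148, 151 and 160.3 CPM after EnzR EVs + HDL NPs. Its log2 fold change was 0.67 (SE 0.12, 1.59-fold), and DESeq2's adjusted p was 1.81e-06. Nlrc5, the transactivator of MHC class I genes, was at 21.6, 38.4 and 34.4 CPM in PBS mice and 32.4 to 115 CPM in EV-injected mice, with 5 of 6 above the PBS range (log2 fold change 1.14, SE 0.30). Tap1, a subunit of the peptide transporter, had a log2 fold change of 0.35 (SE 0.17), H2-Q6 of 0.69 (SE 0.31) and H2-M3 of 0.32 (SE 0.17), all with overlap. H2-Q6 belongs to a family of close copies, so its counts may include reads of other members. MHC class II genes had a median of -0.15 over 11 members, with 5 above 0, and the median was 0.06 without PBS replicate 3.

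The genes that carry the interferon signal differed among themselves. Of 21 tested receptors, STATs and interferon regulatory factors, 14 had a log2 fold change above 0 and 7 below, with a median of 0.03. Stat2 was at 38.7, 47.8 and 48.7 CPM in PBS mice and 36.8 to 83.9 CPM in EV-injected mice (log2 fold change 0.46, SE 0.19), and Irf7, the factor that amplifies interferon production, had a log2 fold change of 0.68 (SE 0.35), which was 0.42 without EnzR EV replicate 2. In both genes EnzR EV replicate 1 lay below the PBS mice and the other 5 EV-injected mice above them. Socs3, a feedback inhibitor of cytokine receptors, had a log2 fold change of 0.42 (SE 0.23; 0.26 without EnzR EVs + HDL NPs replicate 2), and Irf5 one of -0.27 (SE 0.16). Irf4, which guides macrophage polarisation and lymphocyte maturation, went the other way at 15.1, 11.4 and 13.5 CPM in PBS mice, 7.13, 4.31 and 5.20 CPM after EnzR EVs and 9.18, 8.76 and 7.82 CPM after EnzR EVs + HDL NPs. The groups did not overlap (log2 fold change -0.99, SE 0.19; DESeq2 adjusted p = 0.0241), and the value after EnzR EVs was lower in each mouse than after EnzR EVs + HDL NPs.

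Among the 10 non-overlapping higher genes with the smallest p, 4 were neither Gm12250 nor on the interferon or MHC class I lists. Whether these 4 respond to interferon was not tested. Ly6i, a Ly6 family surface antigen of myeloid cells, was at 0.880, 2.07 and 1.72 CPM in PBS mice and 3.64 to 6.59 CPM in EV-injected mice (log2 fold change 1.72, SE 0.34; DESeq2 adjusted p = 0.0188). Vcan, the chondroitin sulphate proteoglycan versican of the extracellular matrix, was at 84.7, 55.7 and 50.2 CPM in PBS mice, 88.3, 222 and 123 CPM after EnzR EVs and 195, 99.8 and 175 CPM after EnzR EVs + HDL NPs. Its log2 fold change was 1.25 (SE 0.33, 2.39-fold; DESeq2 adjusted p = 0.145), and the lowest EV-injected and the highest PBS library, 88.3 and 84.7 CPM, were both Rn45s-rich. Without the 3 Rn45s-rich libraries, the log2 fold change of Vcan was 1.82 (edgeR, adjusted p = 0.0307). Cd244, the SLAM family receptor 2B4, had a log2 fold change of 0.67 (SE 0.17). Cfb, factor B of the alternative complement pathway, had one of 1.36 (SE 0.39), with EnzR EV replicate 1 and PBS replicate 3 both at 6.58 CPM when rounded.

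Immediate-early genes, the transcription factors and phosphatases that cells induce within minutes of stimulation, were mostly lower. Of 45 tested, 37 had a log2 fold change below 0, and the median was -0.24 (-0.10 without PBS replicate 1). At an unadjusted p under 0.05, 5 were lower, against 1.41% of all genes. In 5 all EV-injected mice lay below all PBS mice (11.1%, against 0.932% of all genes). By edgeR 0 were called, and by DESeq2 1. The called gene was Atf3, a stress-induced repressor of inflammatory genes, at 87.1, 82.0 and 97.7 CPM in PBS mice. It stood at 34.6, 45.2 and 30.7 CPM after EnzR EVs and at 43.1, 59.0 and 58.8 CPM after EnzR EVs + HDL NPs. Its log2 fold change was -0.996 (SE 0.17), and DESeq2's adjusted p was 0.000784. Fos, a subunit of AP-1, was at 1172, 1326 and 1332 CPM in PBS mice and 675 to 1112 CPM in EV-injected mice, without overlap (log2 fold change -0.58, SE 0.18). Klf10 and Dusp1 were also below the PBS mice in all 6, with log2 fold changes of -0.46 (SE 0.16) and -0.41 (SE 0.16), and Egr1 overlapped (-0.64, SE 0.24), with a log2 fold change of -0.23 without PBS replicate 1, its highest library. Averaged over the list, not every mouse was lower: EnzR EV replicate 1 and PBS replicate 1, both Rn45s-rich, had the highest values, 6.21 and 6.27 in log2 CPM. Atf4, the master factor of the integrated stress response, was at 238, 243 and 239 CPM in PBS mice and 162 to 228 CPM in EV-injected mice (log2 fold change -0.36, SE 0.13), whereas its list of 29 genes had a median of 0.05, with 0.24 after EnzR EVs and -0.14 after EnzR EVs + HDL NPs. Averaged over that list, log2 CPM was 5.949 to 6.04 in the 3 EnzR EV mice, 5.62 to 5.78 in the mice given HDL NPs and 5.72 to 5.946 in PBS mice.

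Hspa1b and Hspa1a, which encode the heat-inducible HSP70 proteins, had the lowest log2 fold changes among the named genes. Hspa1b was at 21.1, 2.70 and 4.98 CPM in PBS mice, and in EV-injected mice it ranged from 0 to 0.954 CPM with a median of 0.765. All 6 were below all PBS mice (log2 fold change -3.58, SE 0.61; DESeq2 adjusted p = 0.000326), and without PBS replicate 1 edgeR's log2 fold change was -2.33. The floor of 3 counts lies at 0.166 to 1.16 CPM in these libraries, and the 0 came from the smallest. Hspa1a was at 13.02, 2.76 and 4.58 CPM in PBS mice and 0.358 to 3.29 CPM in EV-injected mice, with an overlap of 1 mouse (log2 fold change -2.95, SE 0.59; DESeq2 adjusted p = 0.0452). The genes are near-identical copies whose reads the counting may divide or drop, so the values of each are uncertain, and in both the highest level was that of PBS replicate 1, a Rn45s-rich library. The window that holds a heat shock element core, GAANNTTC on either strand, has the same letters in both promoters, and is shown for Hspa1b with the core in capitals (9.04% of 27025 genes hold such a core):
Hspa1b, chr17:34959295-34959382, minus strand: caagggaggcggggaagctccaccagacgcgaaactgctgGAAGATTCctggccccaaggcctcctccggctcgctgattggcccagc
The other chaperones did not follow: the 25 tested heat shock and chaperone genes had a median of -0.01, Dnajb1 had a log2 fold change of -0.30 (SE 0.24) and Hspa8 of -0.25 (SE 0.20), with ranges of -0.49 to -0.18 and -0.39 to -0.13 when single mice were left out.

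The NF-kB list held chemokines on both sides: Cxcl10 was higher, as given above, and Ccl3, Ccl4 and Cxcl2 were lower without passing the adjustment. Ccl3, a chemoattractant for monocytes and neutrophils, was at 22.9, 23.8 and 24.6 CPM in PBS mice, 4.94, 14.7 and 5.56 CPM after EnzR EVs and 17.4, 13.2 and 10.7 CPM after EnzR EVs + HDL NPs. The groups did not overlap (log2 fold change -1.08, SE 0.30). Ccl4, its neighbour and close relative, had a log2 fold change of -0.99 (SE 0.29) with 5 of 6 mice below the PBS range, and Cxcl2, a neutrophil chemoattractant, one of -0.82 (SE 0.30) without overlap. Tlr2, a receptor for bacterial lipoproteins, had a log2 fold change of -0.42 (SE 0.18). Of the 52 tested NF-kB targets and regulators 36 were below 0, and the median was -0.09. It was -0.04 without EnzR EVs + HDL NPs replicate 1 and -0.05 without the 3 Rn45s-rich libraries. Niacr1, the nicotinic acid and beta-hydroxybutyrate receptor, was at 61.4, 67.4 and 63.8 CPM in PBS mice, 29.6, 40.1 and 35.2 CPM after EnzR EVs and 36.9, 47.3 and 45.2 CPM after EnzR EVs + HDL NPs (log2 fold change -0.72, SE 0.14; DESeq2 adjusted p = 0.0175). The groups did not overlap. Hpgd, which breaks down prostaglandins, had a log2 fold change of -0.72 (SE 0.24) with overlap.

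Marrow macrophage genes were lower in EV-injected mice as a list. Of 27 tested members, 26 had a log2 fold change below 0, and the median was -0.65. At an unadjusted p under 0.05, 13 were lower, against 1.41% of all genes. In 4 (14.8%, against 0.932% of all genes) all EV-injected mice lay below all PBS mice. By edgeR 0 members were called, and by DESeq2 1. The spread in PBS mice was wide: summed levels were 1748, 2275 and 3153 CPM, against 1435, 1750 and 1543 CPM after EnzR EVs and 1881, 1810 and 1737 CPM after EnzR EVs + HDL NPs. PBS replicate 1 overlapped the EV-injected mice, and without PBS replicate 3 the list median was -0.22. Without the 3 Rn45s-rich libraries, PBS replicate 3 included in the fit, it was -0.73, and 21 of the 27 were lower at an unadjusted p under 0.05, against 3.43% of all genes. In marrow samples of this kind, fewer macrophages among the selected cells and less RNA per macrophage cannot be told apart.

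Axl, a receptor tyrosine kinase for clearing apoptotic cells, was at 154, 148 and 221 CPM in PBS mice, 110.3, 100.3 and 95.9 CPM after EnzR EVs and 118, 97.3 and 103 CPM after EnzR EVs + HDL NPs. The log2 fold change was -0.75 (SE 0.16, 1.68-fold lower), and DESeq2's adjusted p was 0.0216. Cd5l, a secreted macrophage protein that protects cells from apoptosis, was at 54.7, 46.0 and 83.6 CPM in PBS mice and 24.2 to 46.0 CPM in EV-injected mice (log2 fold change -0.94, SE 0.22), so that its groups met without crossing. Apoe, the apolipoprotein that macrophages secrete with cholesterol, was at 156, 195 and 256 CPM in PBS mice and 94.7 to 150.03 CPM in EV-injected mice (log2 fold change -0.78, SE 0.19). Sepp1, which encodes the selenium carrier selenoprotein P and was not on the list, was at 388, 318 and 411 CPM in PBS mice and 215 to 266 CPM in EV-injected mice (log2 fold change -0.63, SE 0.14; DESeq2 adjusted p = 0.0118). Neither Axl, Apoe nor Sepp1 overlapped between groups.

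The fourth list member without overlap was Fcna, ficolin A, a lectin of the complement system, which is named after its values were seen (log2 fold change -0.83). Cd163, Hmox1, Cx3cr1, Cd209f and Csf1r overlapped. Cd163, the haptoglobin-hemoglobin scavenger receptor, had a log2 fold change of -0.55 (SE 0.22), Hmox1, heme oxygenase 1, of -0.57 (SE 0.27), and Cx3cr1, the fractalkine receptor, of -0.43 (SE 0.14). Without PBS replicate 3 the log2 fold change of Cd163 was -0.28 and that of Hmox1 -0.14, and Hmox1 was at -0.88 without PBS replicate 1. Cd209f, a C-type lectin, was at 0.704 CPM in PBS replicate 1 and at 3.97 and 7.21 CPM in the other PBS mice, and PBS replicate 1 lay within the EV-injected range (log2 fold change -1.72, SE 0.52; exact permutation p = 0.214; -1.001 without PBS replicate 3). Csf1r, the receptor that macrophages and monocytes need for survival, was at 330.1 to 381 CPM in PBS mice and 213 to 338 CPM in EV-injected mice (log2 fold change -0.26, SE 0.16).

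The list of LXR and cholesterol efflux genes had members on both sides, and none passed. Of the 24 tested, 19 were below 0 and the median was -0.22, with -0.24 after EnzR EVs and -0.16 after EnzR EVs + HDL NPs. Lipg, endothelial lipase, was the list's 1 higher member at an unadjusted p under 0.05, against 0.765% of all genes. At that level 4 members were lower, against 1.41% of all genes. The log2 fold change of Lipg was 1.23 (SE 0.53). It was 0.74 without PBS replicate 3 and 2.48 without PBS replicate 1, where edgeR's adjusted p was 0.0176. Abca1, the pump that loads cholesterol onto apolipoprotein A-I and the main route of efflux to nascent HDL, was at 36.3, 47.3 and 65.0 CPM in PBS mice and 28.3 to 37.5 CPM in EV-injected mice (log2 fold change -0.63, SE 0.18; exact permutation p = 0.0476), and its log2 fold change was -0.39 without PBS replicate 3. Lpl, lipoprotein lipase, had a log2 fold change of -0.73 (SE 0.21), and Pltp, the phospholipid transfer protein, of -0.59 (SE 0.25) without overlap. Cholesterol synthesis genes, targets of SREBP2, were below 0 in 24 of 27 with a median of -0.18, but 0 of them had an unadjusted p under 0.05, and without the 3 Rn45s-rich libraries the median was 0.05.

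**Figure D3:**
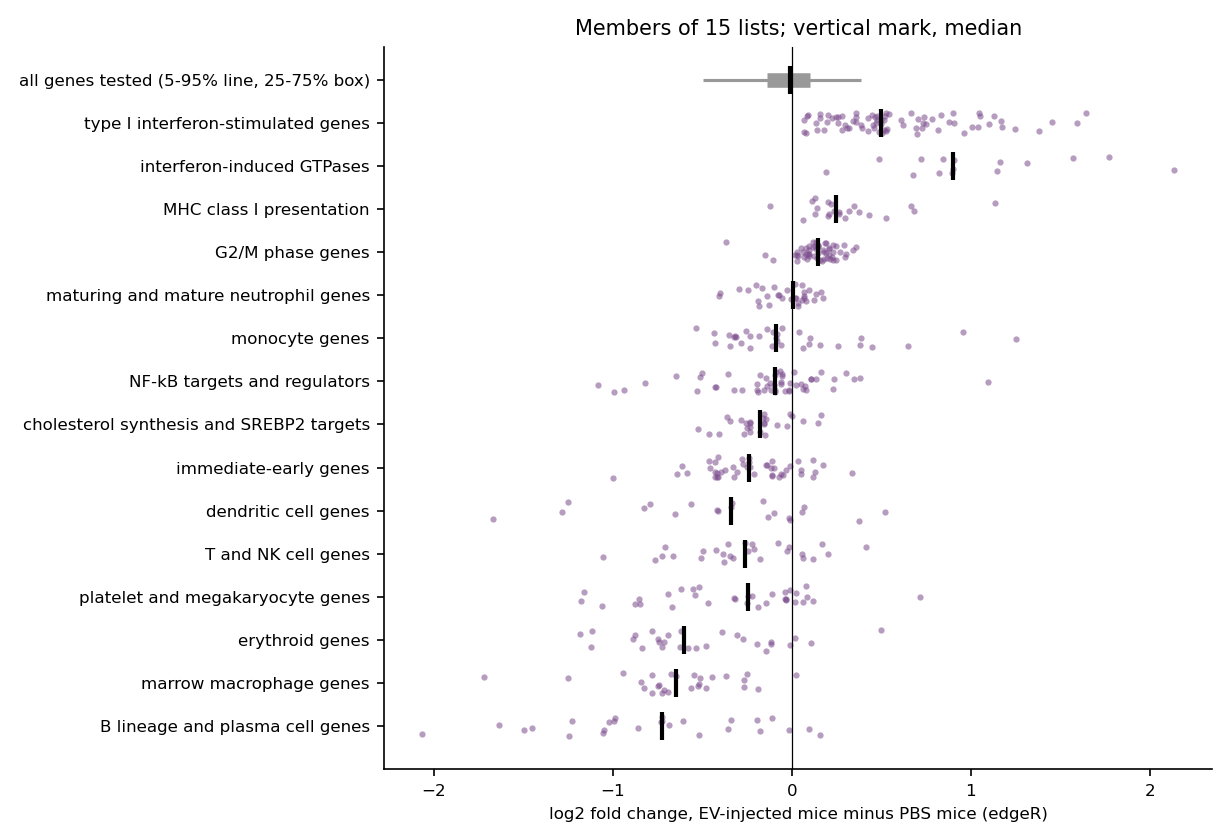
Log2 fold change (EV-injected minus PBS mice, edgeR) of each tested member of 15 lists (points) with the list median (vertical mark); the grey line and box give the 5 to 95% and 25 to 75% range of all 12553 genes. All members of the type I interferon and GTPase lists lie above 0, and most members of the macrophage, erythroid and B lineage lists lie below it.

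Lists of markers of cells other than the selected myeloid cells had medians below 0, and edgeR called 0 of their members. DESeq2 called 1 lower member of the B lineage list, Irf4, and 1 of the platelet list, Thbs1 (against 0.0426% of all genes). Of 26 tested B lineage and plasma cell genes 24 were below 0, with a median of -0.73, which was -0.39 without PBS replicate 1 and -1.13 without EnzR EV replicate 1. Summed over the list, levels overlapped at 887 to 1248 CPM in PBS mice and 681 to 1303 CPM in EV-injected mice. Pax5, the factor that commits B cells, was at 0.880, 0.633 and 0.629 CPM in PBS mice and 0 to 0.225 CPM in EV-injected mice (log2 fold change -2.07, SE 0.50), levels at or near the floor of 3 counts. 2010001M09Rik (Mzb1), a plasma cell chaperone, had a log2 fold change of -1.64 (SE 0.53), also near the floor. Erythroid genes were below 0 in 25 of 28 with a median of -0.60 (-0.74 without the 3 Rn45s-rich libraries, with 11 lower at an unadjusted p under 0.05, against 3.43% of all genes): Spna1, erythroid spectrin, had a log2 fold change of -1.12 (SE 0.38), Car2, carbonic anhydrase 2, of -0.69 (SE 0.26) and Rhag, the Rh-associated glycoprotein, of -1.12 (SE 0.46). Summed erythroid levels were 539 to 704 CPM in PBS mice and 409.6 to 471 CPM in 5 EV-injected mice, but 771 CPM in EnzR EVs + HDL NPs replicate 2. Alas2, the first enzyme of heme synthesis in red cells, overlapped at 11.3, 19.7 and 18.8 CPM in PBS mice and 5.56 to 26.6 CPM in EV-injected mice. Hemoglobin genes were at or near 0 counts in every library.

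Platelet genes had a median of -0.25 over 33 members, and differed widely between PBS mice: Ppbp, platelet basic protein, was at 0.352, 25.5 and 38.2 CPM in PBS mice and 0.549 to 15.8 CPM in EV-injected mice (exact permutation p = 0.833), and without PBS replicate 3 the list median was 0.03. Without the 3 Rn45s-rich libraries it was -0.53, and 15 of the 33 platelet genes were lower at an unadjusted p under 0.05 (against 3.43% of all genes). Tubb1 and Gp9, also platelet genes, were likewise lowest among PBS mice in replicate 1. Medians were -0.26 for T and NK cell genes (27 members), -0.34 for dendritic cell genes (20) and -0.26 for stromal and endothelial genes (28), and with 10 counts required in every library, which leaves fewer members, they were 0.05, -0.07 and -0.02. Without the 3 Rn45s-rich libraries they were -0.32, -0.36 and -0.52, and 12 of the 28 stromal and endothelial genes were lower at an unadjusted p under 0.05. Clec10a, a lectin of macrophages and dendritic cells, was at 10.0, 10.5 and 9.73 CPM in PBS mice and 4.94 to 7.71 CPM in EV-injected mice (log2 fold change -0.65, SE 0.18), and Cd209a, a lectin of monocyte-derived dendritic cells, had a log2 fold change of -1.25 (SE 0.36) with overlap. The part of these cells in the interferon and macrophage results was not tested. Neutrophil genes, with 16 members on each side of 0 and a median of 0.01, and monocyte genes, with a median of -0.09 over 33, had medians near that of all genes.

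**Figure D4:**
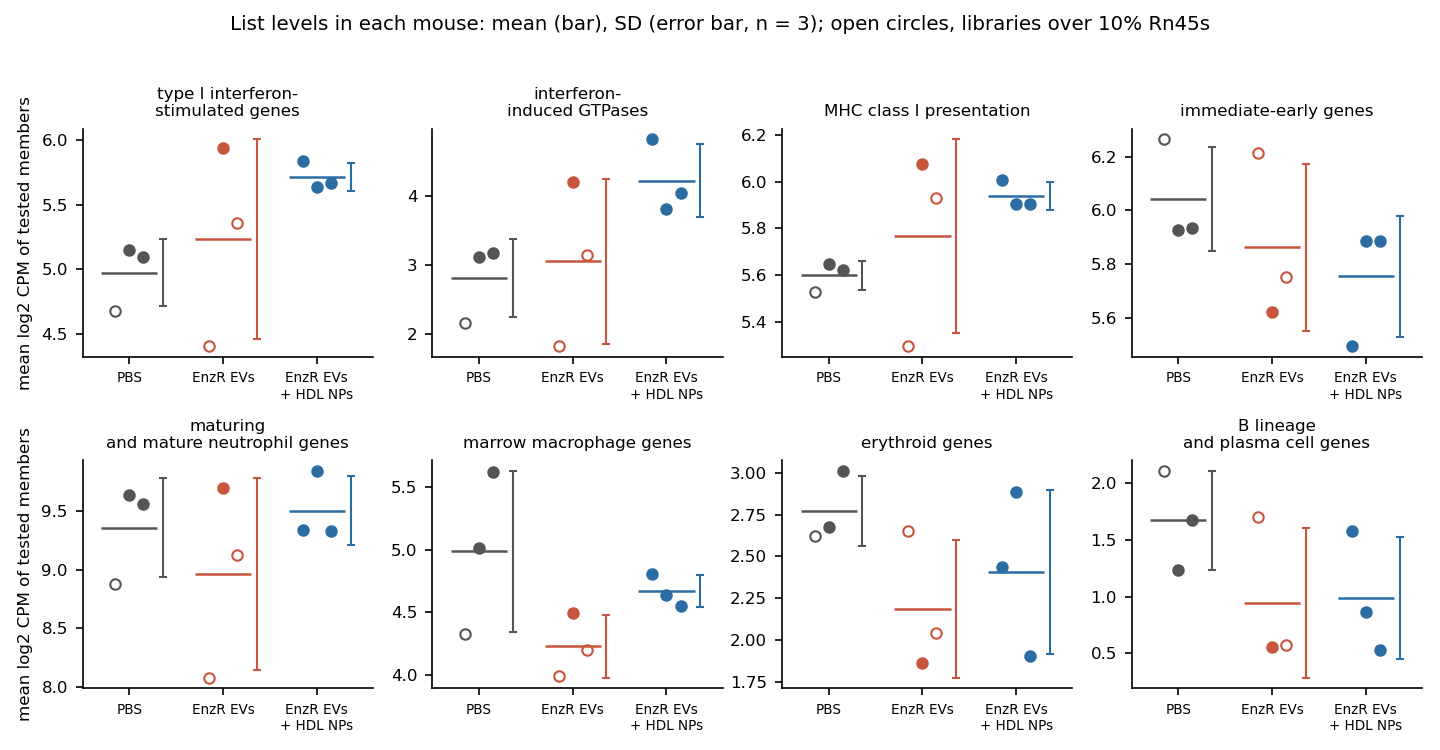
Mean log2 CPM of the tested members of 8 lists in each mouse, by group; horizontal bars are group means, error bars SDs of 3 mice, and open circles the 3 libraries with over 10% Rn45s. The interferon lists of EnzR EV replicate 1 lie below the PBS mice and those of all 3 mice given HDL NPs above them, and the macrophage list of PBS replicate 1 lies within the EV-injected range.

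Cell cycle genes of the G2/M phase were above 0 in 52 of 55, with a median of 0.14, and 0 had an unadjusted p under 0.05. The 1 member without overlap (1.82%, against 0.701% of all genes) was Cdc25c, the phosphatase that opens mitosis. It was at 12.4 to 14.4 CPM in PBS mice and 15.4 to 19.0 CPM in EV-injected mice. Without the 3 Rn45s-rich libraries the median was 0.31 and 23 of the 55 were higher at an unadjusted p under 0.05, against 2.23% of all genes in that fit. S phase genes had a median of 0.06, with 0.14 after EnzR EVs and -0.07 after EnzR EVs + HDL NPs, and of 0.20 without the 3 Rn45s-rich libraries (41 of 48 above 0, 5 higher at an unadjusted p under 0.05). Ccne1, cyclin E1, had a log2 fold change of 0.41 (SE 0.20).

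How far a value was shared by both EV-injected groups was examined with each group against the same 3 PBS mice, and with the difference between the EV-injected groups themselves. Both comparisons use the same control mice, so their fold changes are not independent. By edgeR 0 of 12553 genes differed between EnzR EVs + HDL NPs and EnzR EVs, and 1325 had an unadjusted p under 0.05. That is more than in the pooled comparison with PBS mice, where 96 of the 12553 were higher and 177 lower at that level. DESeq2 called 1 gene between the EV-injected groups, Tspo, and voom with quality weights 653. Type I interferon genes had medians of 0.34 after EnzR EVs and 0.69 after EnzR EVs + HDL NPs, and interferon-induced GTPases of 0.58 and 1.21. EnzR EV replicate 1, the Rn45s-rich library with the lowest level of both lists, belongs to the first group. Marrow macrophage genes had medians of -0.84 and -0.49.

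Genes with near-equal values in both groups were Ly6i (log2 fold changes 1.72 and 1.72; difference 0.01, SE 0.35), H2-T24 (0.64 and 0.69; difference 0.05, SE 0.14), Rsad2 (1.12 and 0.99; difference -0.13, SE 0.21), Vcan (1.203 and 1.31; difference 0.10, SE 0.36), Axl (-0.78 and -0.72; difference 0.06, SE 0.19) and Sepp1 (-0.64 and -0.62; difference 0.02, SE 0.16).

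Of 18 genes named in the study, which chose them on these samples, 9 were higher and 9 lower in EV-injected mice. In 5 (Rsad2, Vcan, Atf3, Cd5l and Irf4) the groups did not overlap, against 0.701% of all genes above and 0.932% below. Because of that choice, the count is not an independent result. Other named genes, of which Fn1 and Has2 were not among the 18, had unequal values in the EV-injected groups. In the fit to all 9 libraries none of these differences passed the adjustment (edgeR, adjusted p = 0.461 for each of Lipg, Steap4, Cmah, Ifitm1, Thbs1, Ptgs2, Itga8, Fn1 and Has2). Lipg alone was called between these groups without PBS replicate 1 and, in a separate fit, without the 3 Rn45s-rich libraries. Lipg, endothelial lipase, which hydrolyses HDL phospholipid, was at 15.3, 3.05 and 2.12 CPM in PBS mice, 32.4, 37.7 and 32.5 CPM after EnzR EVs and 5.63, 6.02 and 6.78 CPM after EnzR EVs + HDL NPs. Its log2 fold changes were 2.47 and -0.014 (difference -2.48, SE 0.58; edgeR unadjusted p = 0.00139, adjusted p = 0.461), and PBS replicate 1 alone among PBS mice lay above the mice given HDL NPs. Steap4, a metalloreductase, had 1.56 and -0.40 (difference -1.96, SE 0.63), also with its highest PBS level, 18.8 CPM, in replicate 1. Cmah, which makes the sialic acid Neu5Gc, had 1.25 and 0.16 (difference -1.09, SE 0.29), and Ifitm1, an interferon-induced membrane protein, 1.25 and 0.23 (difference -1.02, SE 0.39).

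Thbs1, the matrix glycoprotein thrombospondin 1, was at 1073, 1799 and 1737 CPM in PBS mice, 559.7, 628 and 582 CPM after EnzR EVs and 1012, 1121 and 1447 CPM after EnzR EVs + HDL NPs. The EnzR EV mice lay below all others, while the mice given HDL NPs overlapped the PBS range (log2 fold changes -1.38 and -0.37; difference 1.02, SE 0.23; edgeR unadjusted p = 0.00109, adjusted p = 0.461). The pooled log2 fold change was -0.87 (SE 0.19; DESeq2 adjusted p = 0.037). Ptgs2, cyclooxygenase 2, was at 91.5, 121 and 119 CPM in PBS mice, 52.1, 64.9 and 48.7 CPM after EnzR EVs and 78.7, 127 and 112 CPM after EnzR EVs + HDL NPs (-0.998 and -0.06). Itga8, an integrin chain, had -1.15 and 0.10, Fn1, fibronectin, -0.81 and -0.27, and Has2, a hyaluronan synthase, -1.03 and -0.17. Ttyh2, a chloride channel family gene with all 6 mice below the PBS mice, had -1.16 and -0.95.

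**Figure D5:**
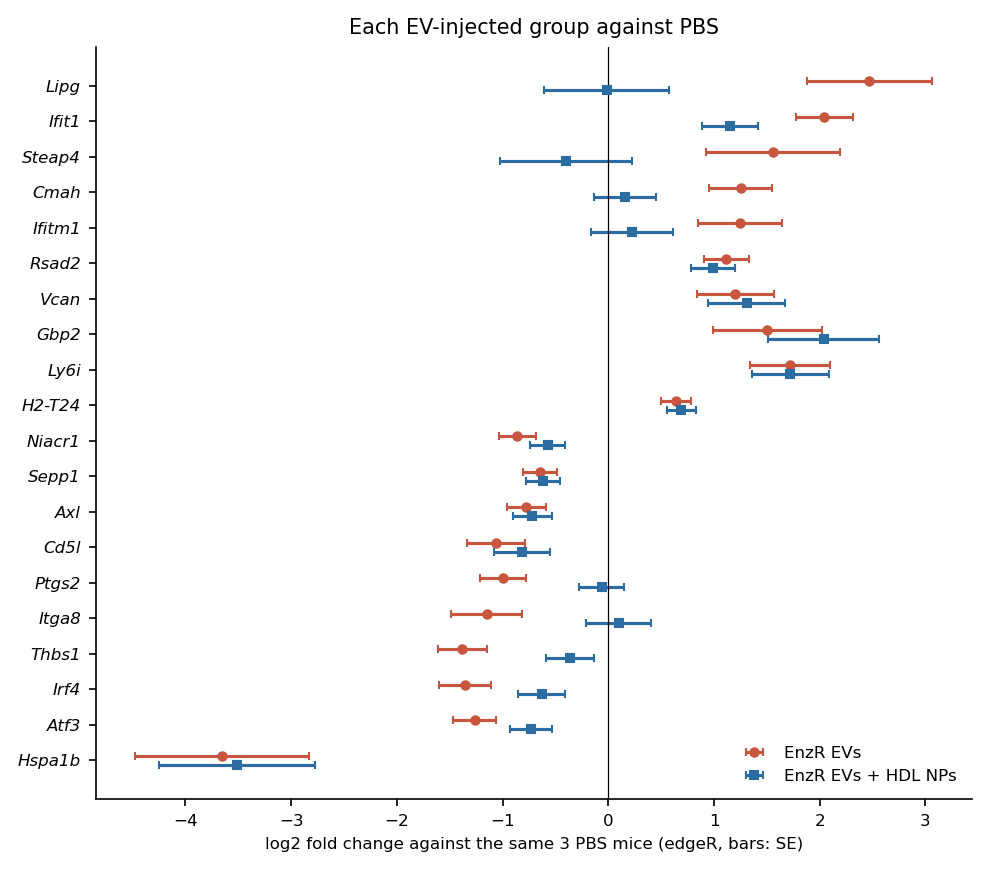
Log2 fold change with SE (edgeR) of 20 named genes after EnzR EVs (circles) and after EnzR EVs + HDL NPs (squares), both against the same 3 PBS mice. Rsad2, Vcan, Ly6i, H2-T24, Sepp1, Axl and Hspa1b lie close in both groups, and Lipg, Steap4, Ptgs2, Itga8 and Thbs1 lie apart.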

How the data were processed

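RNA of CD11b+ bone marrow cells of 9 mice was sequenced as stranded total RNA from 200 ng after rRNA depletion, as single-end reads of 75 bp, 1 library per mouse. The files deposited by the authors hold whole-number read counts, 1 table a mouse, not normalized. Reads had been trimmed and filtered for quality and rRNA, STAR had placed them on mm10, and genes of the UCSC annotation had been counted with HTSeq. Cutadapt 1.13 and HTSeq 0.6.1p1 are named in the submitters' processing notes, and the strand setting of the counting is not given in the sources used here. Groups and replicate numbers came from the sample titles. The labels and methods describe separate mice. Closest of all library pairs within a group were PBS replicates 2 and 3, whose counts differed by more than sampling noise (chi-square of 4.70 per gene).

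Counts were fitted in R 4.3.3 with edgeR 4.0.16: TMM factors, the filter on low counts that 12553 of 23337 genes passed, a robust quasi-likelihood fit with 1 coefficient per group on all 9 libraries, and the mean of both EV coefficients minus PBS, with Benjamini-Hochberg adjustment and a threshold of 0.05. DESeq2 1.42.0 and limma 3.58.1 (voom) were alternatives, as were other normalizations, filters and fits, genes left out, a Rn45s covariate, a replicate block, each replicate and the 3 Rn45s-rich libraries left out. CPM are scaled by TMM factors, and log2 CPM have a prior count of 2. The floor of 3 counts and its CPM cover counting error only, since reads carry no molecular identifiers. On simulated data for this comparison with 200 changed genes, edgeR (12400 genes) called 54% of changes of 1 log2 unit and 96% of changes of 2, with 3.85% of calls false. DESeq2 (12553 genes) called 72% and 97%, with 12.9% false. Changed genes were drawn only from genes with higher mean counts. All simulated libraries shared the same mean profile, so the shifts of the 3 Rn45s-rich libraries were not simulated. These percentages hold for that setting only.

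The comparison, the 27 gene lists (890 of 902 entries in the counts, some through RefSeq synonyms) and the named genes were chosen with earlier results of these data known. Named genes were 18 that the study names, 10 per direction (no gene passed, so those with the smallest p among genes with non-overlapping groups), the 5 smallest p of each pathway list and 3 of each marker list, and markers; a part of them is printed. Coordinates are from GENCODE M21 and promoters from RefSeq, both on GRCm38, matched by symbol (promoters for 8932 of 12553 tested genes). Figures were drawn with matplotlib 3.10.9.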

Additional observations from a re-analysis of the deposited data

Results flagged for a closer look

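The 6 EV-injected mice were screened for a mouse far from the other 5 in the log2 CPM of 80 named genes and the mean log2 CPM of 27 lists, by a gap that exceeds Dixon's critical value of 0.625 of the range. Of these 107 checks 8 exceeded it, where chance gives about 1 in 20. EnzR EV replicate 1, the smallest and most Rn45s-rich library, was the lowest mouse in 5 of them: Hspa1b (-2.72) and Pax5 (-2.72), both at 0 counts there, Ppbp (-0.51), the MHC class I list (5.30, against 5.90 in the next mouse) and the NF-kB list (4.10). The part of depth and Rn45s in these values was not tested. EnzR EVs + HDL NPs replicate 3 was the highest mouse for H2-T24 (7.33), EnzR EV replicate 3 the lowest for Ttyh2 (1.26), and EnzR EVs + HDL NPs replicate 1 the highest for the T and NK cell list (1.53).

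In 1 named gene, Itga8, every mouse given EnzR EVs lay on one side of the PBS mean and every mouse given EnzR EVs + HDL NPs on the other, with a difference of group means of -1.30 in log2 CPM (EnzR EVs lower); by edgeR's test of that difference the adjusted p was 0.461.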

How the results depend on the processing

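Of 80 named genes, 75 kept 1 direction under every alternative that gave them a value (20 to 25 alternatives per gene). Of 1974 alternative values, 66 passed the threshold that 0 passed in the fit to all 9 libraries with group coefficients only. Genes called by edgeR were 0 (0 higher, 0 lower), and 14 (6, 8) by DESeq2, 86 (36, 50) by voom with quality weights, 14 (13, 1) without the 3 Rn45s-rich libraries and 3 (1, 2: Ifit1 higher, Atf3 and Hspa1a lower) with the Rn45s share as covariate. Leaving out single replicates gave 0 to 1 called (0 to 1 higher, 0 lower), the 1 being Lipg without PBS replicate 1. Calls between EV-injected groups were 1 by DESeq2 (Tspo), 653 by voom with quality weights, 1 without the 3 libraries (Lipg) and 0 to 1 without single replicates (Lipg without PBS replicate 1). Genes with all EV-injected mice above the PBS mice numbered 88, and 37 with library size only, 57 with 10 counts in every library, 919 without the 3 libraries and 121 to 312 without single replicates; genes below numbered 117, and 64, 912 and 157 to 411 (124 with library size only). Fewer mice separate more easily by construction.

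The replicate number as a block (replicate block) gave 2 calls, 1 higher (Ifit1, adjusted p = 0.0396) and 1 lower (Hspa1a), and 0 calls between EV-injected groups. Same-numbered mice of different groups correlated in their deviations at -0.18 to 0.49 (mean 0.17, 6 of 9 pairs over 0.1), against a mean of -0.08 for different numbers. As not every pair was over 0.1 and the labels give no shared origin, the mice were treated as unpaired. Directions reversed in 5 genes. With EnzR EVs + HDL NPs alone against PBS, Itga8 was 0.10, Lipg -0.014, Steap4 -0.40 and Ly6c2 0.15. Itgam was -0.0076 by voom with quality weights and -0.046 to 0.17 without single replicates, and Ly6c2 was 0.10 without the 3 libraries and -0.49 to 0.14 without single replicates. The cause was not tested. The list medians of interferon-stimulated genes (0.34 to 0.69), interferon-induced GTPases (0.58 to 1.21) and marrow macrophage genes (-0.88 to -0.22) kept their sign under all 25 alternatives. The medians of 12 lists changed sign under at least 1: cholesterol synthesis, early granulocyte, mature neutrophil, heat shock, integrated stress response, MHC class II, monocyte, interferon receptors, platelet, S phase, T and NK cell, and eosinophil, basophil and mast cell genes.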
